A study of Mus musculus with 6 samples.

Results

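The 10 genes described here encode the core of the G1 phase machinery: the D-type cyclins Ccnd1, Ccnd2 and Ccnd3 with their kinases Cdk4 and Cdk6, the E-type cyclins Ccne1 and Ccne2 with their kinase Cdk2, and the transcription factors E2f1 and E2f2. They were chosen by symbol, and all 10 were found among the 31771 Ensembl genes of a spleen RNA-seq count table. The study profiled pieces of spleen from 6 mice labelled as strain C57BL/6 to ask how their cell composition differed. The 3 mutant animals carried VEC-Cre (Cre recombinase under the VE-cadherin promoter), an SB transposase (Sleeping Beauty) and the onc2 transposon, and the 3 control animals were labelled WT. The labels give no age, litter or batch. The VE-cadherin promoter is active in endothelium and also marks blood cells that arise from embryonic endothelium. A mobilised transposon inserts at different sites in each animal, so the mutants are not replicates of 1 mutation.

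A cell enters S phase when D cyclins activate CDK4 and CDK6, which begin to phosphorylate the retinoblastoma protein. Cyclin E with CDK2 completes that step and frees the activator E2F factors, which switch on the genes of DNA replication and cyclin E itself. In mouse blood formation Cdk6 is prominent in stem and progenitor cells, Ccnd3 serves dividing lymphoid and erythroid precursors, and E2f2 is abundant in late erythroid precursors. The mouse spleen holds resting lymphocytes in its white pulp and can make red cells in its red pulp.

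Libraries held 72902118 to 79258116 gene counts, and levels are in CPM, counts scaled to the same total in every library. The mutant spleens varied widely: the biological coefficient of variation was 73.2% among mutants and 17.1% among controls. Xist, expressed from the silenced X of females, was at 1513, 580 and 0.586 CPM in mutants 1, 2 and 3, against 0.423 to 0.663 CPM in controls, so mutant 3 alone matched the controls in sex by this measure. Pi4ka, the lipid kinase gene named in the series title, was at 82.9, 92.5 and 108 CPM in mutants and 108, 119 and 130 CPM in controls (adjusted p = 0.238 by edgeR). Cdh5, which encodes VE-cadherin, was at 44.1, 42.6 and 164 CPM in mutants and 38.9 to 44.6 CPM in controls (adjusted p = 0.260 by edgeR). The 7 B-cell markers checked, such as Ebf1 and Pax5, all fell, with a summed level of 32.2 to 81.4 CPM in mutants and 4129 to 4683 CPM in controls. Of 8 T-cell markers 5 fell (21.5 to 90.7 CPM in mutants and 658 to 823 CPM in controls). Of 6 granulocyte precursor markers 5 rose (350 to 581 CPM in mutants and 23.9 to 55.6 CPM in controls), and of 6 megakaryocyte markers 3 rose (1028 to 4540 CPM in mutants and 326 to 601 CPM in controls). Of 5 endothelial markers 1 rose and 1 fell (260 to 479 CPM in mutants and 412 to 451 CPM in controls), and of 6 markers of splenic stroma 3 fell (90.9 to 261.8 CPM in mutants and 649 to 826 CPM in controls). No marker on the 9 lists checked was at 0 in any library. In such bulk tissue, fewer cells of a type and less RNA per cell cannot be told apart.

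Of the 10 genes, 2 rose in the mutant spleens, Ccnd3 and E2f1, and 0 fell. The calls come from the quasi-likelihood test of edgeR, with p adjusted over the 19573 genes tested and a threshold of 0.05. At an unadjusted p under 0.05 edgeR found 5 genes higher and 0 lower, where 16.2% of all genes tested were higher and passed that threshold. DESeq2 called 3 higher and 0 lower (beside 10.3% and 11.1% of its genes), and gave E2f2 no adjusted p. Of all genes tested 5.08% rose and 6.9% fell. All 10 genes had a positive fitted fold change, as did 10734 of the 19573 genes tested. For Ccnd1, Ccne1 and E2f2 that sign turned without mutant 2. The median log2 fold change of the 10 genes was 0.83 mutant over control, beside a median of 0.10 over all genes tested. In 5 of the 10 genes every mutant lay above every control, an arrangement seen in 18% of all genes tested, and in 0 every mutant lay below every control (22.6% of all genes tested).

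**Figure D1:**
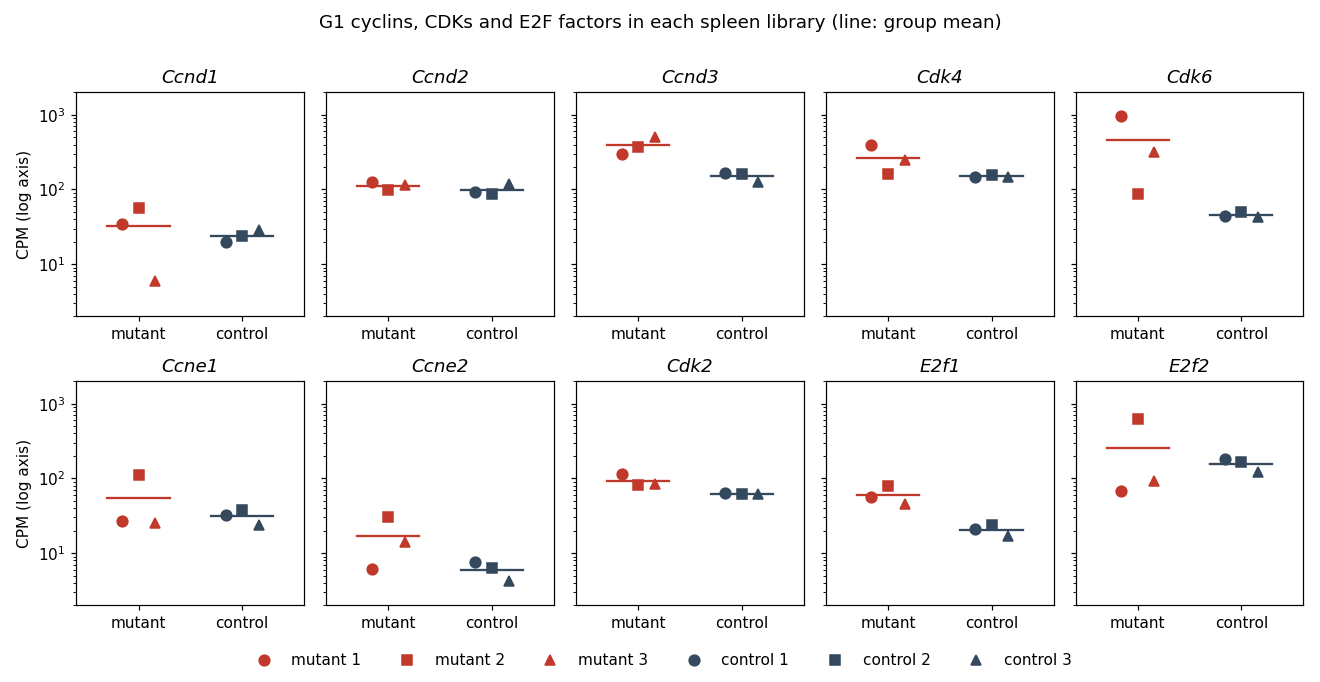
CPM (log axis) of each of the 10 genes in the 3 mutant and 3 control libraries, with 1 point per library and a line at each group mean. Ccnd3, Cdk4, Cdk6, Cdk2 and E2f1 have all 3 mutants above all 3 controls, while Cdk6 spans 86.4 to 978 CPM and E2f2 spans 67.5 to 618 CPM among the mutants.

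The D-type cyclins, which link growth signals to the cycle, did not move as a block. Ccnd3 (ENSMUSG00000034165, GRCm38 chromosome 17, 47505051 to 47599691) was at 294, 374 and 511 CPM in mutants 1, 2 and 3, against 169, 162 and 128 CPM in the controls. Every mutant exceeded the highest control, and the rise of 1.36 ± 0.26 on the log2 scale passed (SE, n = 3 each, adjusted p = 0.0281 by edgeR). Ccnd2 (ENSMUSG00000000184, chromosome 6, 127125162 to 127152193) was at 126, 98.9 and 113 CPM in the mutants, against 93.6, 85.7 and 119 CPM in the controls. The groups overlapped, and the log2 difference of 0.19 ± 0.17 was the smallest of the 10 (adjusted p = 0.490 by edgeR). Ccnd1 (ENSMUSG00000070348, chromosome 7, 144929931 to 144939925) was at 34.9, 55.8 and 5.93 CPM in the mutants, against 19.9, 23.8 and 28.9 CPM in the controls. Mutants 1 and 2 lay above all controls and mutant 3 below all of them (log2 difference 0.46 ± 0.74, adjusted p = 0.706 by edgeR).

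Compared per kilobase of merged exons, Ccnd3 was the most abundant D-cyclin transcript in all 6 libraries. The 3 D cyclins together came to 54.4, 64.9 and 71.5 CPM per kb in mutants 1, 2 and 3, against 33.4, 32.7 and 33.3 CPM per kb in the controls. Ccnd3 made up 69.5 ± 10.4% of that sum in mutants and 52.6 ± 7.77% in controls (SD, n = 3 each). The share of Ccnd2 was 19.2 ± 4.72% in mutants and 31.9 ± 5.34% in controls. Neither share overlapped between groups, and both reached p = 0.1 in an exact 2-sided permutation test, the smallest p that 3 against 3 allows (0.2 after Benjamini-Hochberg adjustment over 6 shares). Ccnd1 held 13.6, 18.2 and 1.76% in mutants 1, 2 and 3, against 12.7 to 18.4% in controls, with mutant 3 far below the rest (exact permutation p = 0.6, adjusted 0.6). Without mutant 3 the difference in the Ccnd1 share turned from -4.30 to 0.429 percentage points.

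**Figure D2:**
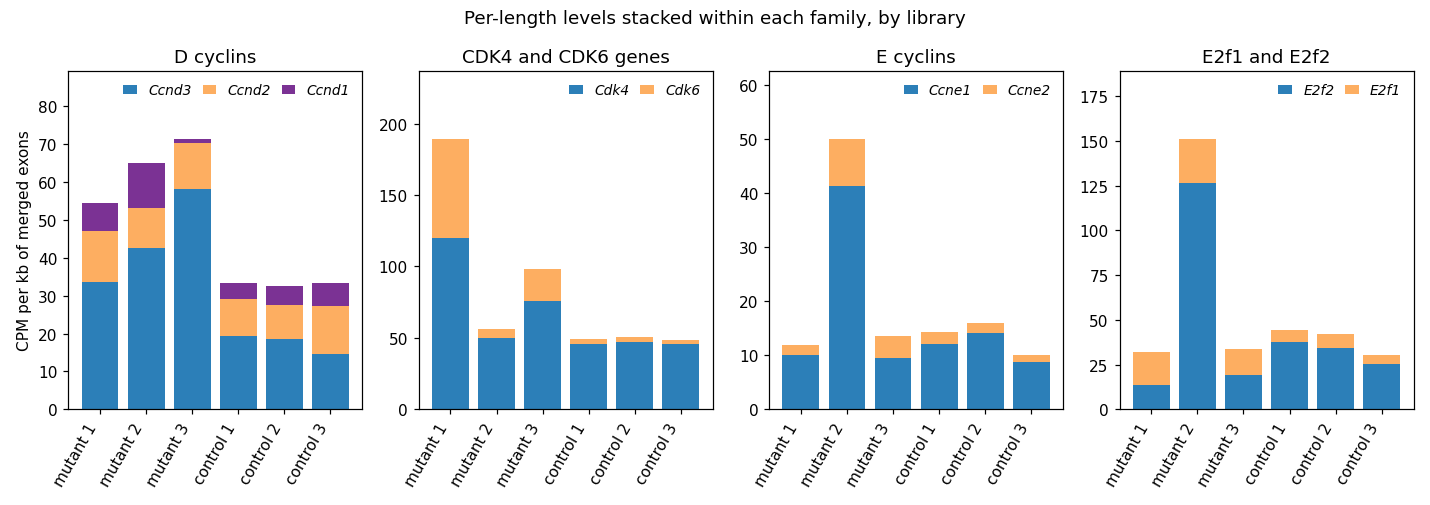
Levels in CPM per kb of merged exons, stacked within 4 families, for each mutant and each control library. The D-cyclin stacks of the mutants reach 54.4 to 71.5 against 32.7 to 33.4 in controls, the added height is mostly Ccnd3, and the E-cyclin and E2f1 with E2f2 stacks stand out in mutant 2.

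Cdk4 and Cdk6 encode the partner kinases of the D cyclins. Cdk6 (ENSMUSG00000040274, chromosome 5, 3341485 to 3531008) was at 978, 86.4 and 317 CPM in mutants 1, 2 and 3, against 44.5, 49.2 and 42.6 CPM in the controls. All 3 mutants exceeded every control, but they differed so widely from each other that the log2 difference of 3.32 ± 0.84, the largest of the 10 genes, did not pass (adjusted p = 0.0538 by edgeR). Cdk6 did pass by DESeq2 (adjusted p = 0.000321), by edgeR without mutant 1 (0.0448) and by edgeR without mutant 2 (0.00897). The log2 difference was 2.14 without mutant 1 and 3.81 without mutant 2. Over the alternatives its adjusted p lay between 8.88e-11 and 0.211. Cdk4 (ENSMUSG00000006728, chromosome 10, 127063534 to 127067920) was at 389, 163 and 246 CPM in the mutants, against 149, 154 and 148 CPM in the controls. The mutants ranked in the same order as for Cdk6, and the lowest of them was only just above the highest control (log2 difference 0.82 ± 0.31, adjusted p = 0.133 by edgeR). Without mutant 2 that log2 difference was 1.05 and passed (adjusted p = 0.0267 by edgeR), and without mutant 1 it was 0.47 and did not (adjusted p = 0.135).

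Per kilobase, Cdk4 was the more abundant kinase transcript in every library. Cdk6 made up 36.9, 10.96 and 23.0% of the pair in mutants 1, 2 and 3, against 6.49, 6.92 and 6.25% in the controls (exact 2-sided permutation p = 0.1, adjusted 0.2). The 6 stem and progenitor markers checked, among them Kit, Cd34 and Gata2, summed to 1250, 104 and 400 CPM in mutants 1, 2 and 3, against 145 to 153 CPM in controls. The mutants thus ranked as for Cdk6, although mutant 2 lay below the controls in these markers and above them in Cdk6. Of these markers 0 passed either way by edgeR, while 2 rose and 1 fell by DESeq2, and the part of such cells in the Cdk6 levels was not tested. The 6 markers did not move together. Gata2, a transcription factor of blood progenitors, was at 399, 18.0 and 125 CPM in the mutants, against 12.6 to 14.6 CPM in controls, with every mutant above every control (adjusted p = 0.0676 by edgeR). Flt3, a receptor of early lymphoid and myeloid progenitors, was at 23.5, 7.73 and 5.61 CPM in the mutants, against 30.9 to 40.2 CPM in controls, with every mutant below every control (adjusted p = 0.118 by edgeR). Kit, Cd34, Meis1 and Myb overlapped between groups.

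Because Cdk4 and Cdk6 ranked the mutants alike, their promoter sequences are shown, from 250 bases before to 50 bases after the annotated start (RefSeq, GRCm38.p6, plus strand for both). Capitals mark CACGTG, the E-box that MYC with its partner MAX is known to bind. The Cdk4 window is chr10:127063285-127063584 and the Cdk6 window is chr5:3343643-3343942.
Cdk4: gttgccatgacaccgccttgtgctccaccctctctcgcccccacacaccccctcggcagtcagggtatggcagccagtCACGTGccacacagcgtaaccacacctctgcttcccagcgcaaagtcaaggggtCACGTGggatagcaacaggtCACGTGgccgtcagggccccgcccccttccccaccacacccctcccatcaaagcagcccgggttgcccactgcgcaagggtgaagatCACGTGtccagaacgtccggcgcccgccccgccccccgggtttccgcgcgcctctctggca
Cdk6: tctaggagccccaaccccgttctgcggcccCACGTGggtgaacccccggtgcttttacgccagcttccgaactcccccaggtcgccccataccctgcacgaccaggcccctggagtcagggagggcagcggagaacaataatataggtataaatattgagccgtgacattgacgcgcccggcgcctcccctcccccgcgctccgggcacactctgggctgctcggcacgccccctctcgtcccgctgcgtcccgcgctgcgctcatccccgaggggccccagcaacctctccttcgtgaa
The Cdk4 window holds 4 such matches, beginning 172, 118, 98 and 11 bases before the start, and the Cdk6 window holds 1, beginning 220 bases before it. Cdk2 and Ccnd2 also ranked the mutants in this order. The Cdk2 window holds 0 matches to CACGTG, as do those of Ccnd3, Ccne1, E2f1 and E2f2, and no Ccnd2 window was on hand. CACGTG reads the same on both strands and occurs in 7.15% of 32851 RefSeq windows of this length, while 4 or more matches occur in 8 of them. The Myc transcript itself was at 454, 88.7 and 441 CPM in mutants 1, 2 and 3, against 83.8, 85.5 and 99.1 CPM in controls. Mutants 1 and 3 lay above all controls and mutant 2 among them (adjusted p = 0.0854 by edgeR). The part of MYC in the Cdk4 and Cdk6 levels was not tested.

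Cdk2 and the E cyclins carry the cell over the G1/S boundary. Cdk2 (ENSMUSG00000025358, chromosome 10, 128697939 to 128705031) was at 114, 81.8 and 85.2 CPM in mutants 1, 2 and 3, against 63.7, 61.7 and 61.2 CPM in the controls. All mutants were higher by a modest and similar amount (log2 difference 0.60 ± 0.18, adjusted p = 0.0785 by edgeR), and the gene passed without mutant 2 (adjusted p = 0.0419 by edgeR). Ccne1 (ENSMUSG00000002068, chromosome 7, 38097984 to 38107534) was at 26.8, 110 and 25.4 CPM in the mutants, against 32.3, 37.5 and 23.5 CPM in the controls. Mutant 2 alone stood above the controls, the other 2 lay within their range, and the log2 difference of 0.85 ± 0.66 turned to -0.29 without mutant 2 (adjusted p = 0.426 with all libraries and also 0.426 without mutant 2, by edgeR). Ccne2 (ENSMUSG00000028212, chromosome 4, 11191351 to 11204779) was at 6.10, 30.8 and 13.9 CPM in the mutants, against 7.51, 6.36 and 4.18 CPM in the controls. Mutants 2 and 3 exceeded all controls and mutant 1 did not (log2 difference 1.53 ± 0.65, adjusted p = 0.170 by edgeR, and 0.0498 without mutant 1). Without mutant 2 the log2 difference was 0.69 (adjusted p = 0.320 by edgeR). Ccne1 made up 79.4 ± 7.77% of the E-cyclin level per kilobase in mutants and 87.2 ± 1.95% in controls (SD, n = 3 each, exact 2-sided permutation p = 0.2, adjusted 0.3).

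E2F1 and E2F2 are activator E2F factors, released when the retinoblastoma protein is phosphorylated. E2f1 (ENSMUSG00000027490, chromosome 2, 154559407 to 154569892) was at 57.0, 78.0 and 45.6 CPM in mutants 1, 2 and 3, against 20.8, 24.1 and 17.0 CPM in the controls. The lowest mutant was well above the highest control, and the rise of 1.57 ± 0.30 on the log2 scale passed (adjusted p = 0.0277 by edgeR). E2f2 (ENSMUSG00000018983, chromosome 4, 136172394 to 136196057) was at 67.5, 618 and 92.8 CPM in the mutants, against 183, 168 and 123 CPM in the controls. Mutant 2 lay far above the controls while mutants 1 and 3 lay below all of them. The fitted log2 change of 0.78 ± 0.89 (adjusted p = 0.589 by edgeR) turned to a fall of -1.02 ± 0.26 without mutant 2, which passed (adjusted p = 0.0431). As a share of E2f1 and E2f2 per kilobase, E2f1 held 56.7, 16.3 and 43.2% in mutants 1, 2 and 3, against 15.0, 18.1 and 17.7% in the controls (exact 2-sided permutation p = 0.3, adjusted 0.36).

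Summed red-cell and monocyte markers also set mutant 2, the spleen high in Ccne1 and E2f2, apart from the other mutants, though not every marker did. The 8 erythroid markers summed to 3404, 35268 and 2995 CPM in mutants 1, 2 and 3, against 39355 to 62727 CPM in controls, so mutant 2 was the highest mutant but lay below every control. Of the 8 markers 2, Tal1 and Epor, rose. Most of each control sum was the globin Hbb-bs, and without it, a step taken after its values were seen, the other 7 summed to 962, 5534 and 2151 CPM in mutants, against 573 to 1213 CPM in controls. Of the 5534 CPM in mutant 2, the membrane transporter gene Slc4a1 gave 3255 CPM. The erythroid markers Gata1, Klf1, Tal1 and Epor were highest in mutant 3, and the others in mutant 2. Mutant 3 had 381 CPM of Gata1, 266 CPM of Klf1 and 403 CPM of Tal1, against 196, 249 and 251 CPM in mutant 2. The 6 monocyte and macrophage markers summed to 263, 3328 and 288 CPM in the mutants, against 380 to 532 CPM in controls, and 1 of them rose. Of these markers Ly6c2 was highest in mutant 3, at 52.3 CPM against 40.9 CPM in mutant 2, and the others in mutant 2. The part of either cell type in the E2f2 and Ccne1 levels was not tested. The E2f2 promoter is shown because the mutants lay on both sides of the controls for this gene. Its first RefSeq window is chr4:136172024-136172323 (GRCm38.p6, plus strand), and capitals mark a match to TTTNGCGC, a sequence known for E2F binding. For this and the other motifs only the printed letters were searched, so variant sites are not counted.
E2f2: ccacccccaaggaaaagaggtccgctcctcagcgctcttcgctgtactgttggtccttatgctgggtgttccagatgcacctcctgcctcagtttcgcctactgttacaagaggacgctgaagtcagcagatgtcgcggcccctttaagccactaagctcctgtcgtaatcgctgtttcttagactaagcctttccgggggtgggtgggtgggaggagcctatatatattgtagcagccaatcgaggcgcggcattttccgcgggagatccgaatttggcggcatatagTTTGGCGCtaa
The match begins at base 40 after the start. TTTNGCGC occurs on either strand in 1.38% of the 32851 windows, and the other 8 windows of the 10 genes had 0 matches. Windows were on hand for 7 of the 10 genes, those other than Ccnd1, Ccnd2 and Ccne2. The letters TTCNNNGAA and AGATAA, known for STAT and GATA factors, had 0 matches in the 9 windows, on either strand, and occur in 8.3% and 11.2% of all windows. CCGCCC, the GC box, occurred in 7 of the 9 windows, with 6 matches in Cdk2 and 5 in E2f1, and in 35.7% of all windows.

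**Figure D3:**
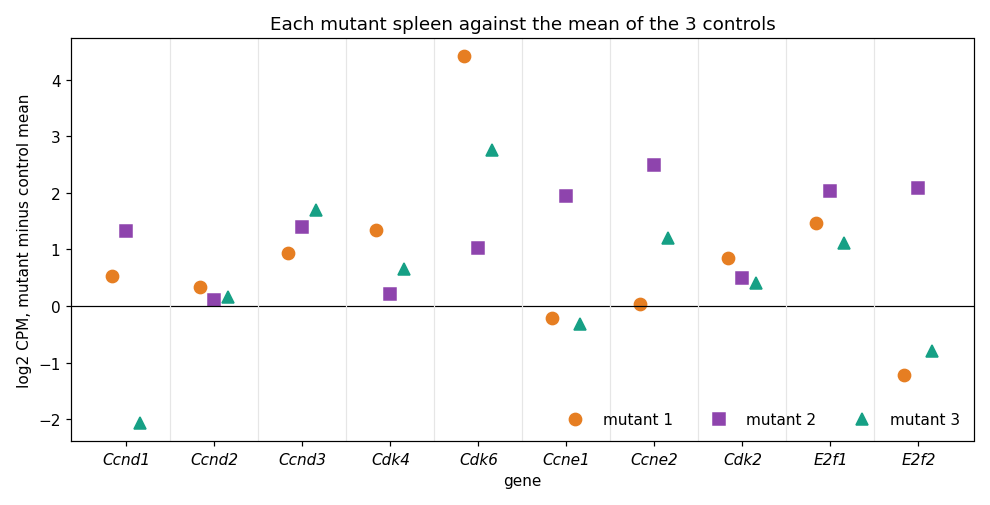
Log2 CPM of each mutant spleen minus the mean log2 CPM of the 3 controls, for each of the 10 genes, with 1 point per mutant. Ccnd2 and Cdk2 lie close together across mutants, while Ccnd1, Cdk6 and E2f2 spread over 3.37, 3.39 and 3.31 log2 units.

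Set against the mean of the controls, the mutants differed in which of the 10 genes lay more than 1 log2 unit higher. Mutant 1 was marked by Cdk6 (4.41 on the log2 scale), E2f1 (1.46) and Cdk4 (1.35), with E2f2 at -1.22. Mutant 2 was marked by Ccne2 (2.49), E2f2 (2.09), E2f1 (2.03), Ccne1 (1.94), Ccnd3 (1.40), Ccnd1 (1.32) and Cdk6 (1.03). Mutant 3 was marked by Cdk6 (2.75), Ccnd3 (1.70), Ccne2 (1.19) and E2f1 (1.11), with Ccnd1 at -2.06 and E2f2 at -0.80. Ccnd3 and E2f1 were higher in all 3, by 0.94 to 1.70 and 1.11 to 2.03. In mutant 3 alone against the controls, the animal that matched them in sex, both passed in a fit where 25.7% of all genes rose and 26.9% fell (Ccnd3 log2 1.69, adjusted p = 0.00431; E2f1 log2 1.10, adjusted p = 0.00671; edgeR, with that single animal assumed to vary like the controls).

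By edgeR, the calls for Ccnd3 and E2f1 rested on having all 3 controls. Without control 1, 2 or 3, 0 of the 10 genes passed, with 4, 3 and 3 of them higher at an unadjusted p under 0.05 (9.46%, 9.39% and 8.63% of all genes tested). Of all genes tested, only 0.0294%, 0.0195% and 0.0392% then rose and 0.636%, 0.581% and 0.627% fell. The adjusted p was 0.122 to 0.146 for Ccnd3 and 0.113 to 0.140 for E2f1, while their log2 differences stayed at 1.23 to 1.45 and 1.43 to 1.71. By DESeq2, in a check chosen after the data were seen, Ccnd3, Cdk6 and E2f1 rose without control 1, 2 or 3 (beside 5.3%, 5% and 4.63% of all genes).

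Leaving out a mutant changed which other genes passed. By edgeR, 4 of the 10 rose without mutant 1 (8.73% of all genes), 5 rose and E2f2 fell without mutant 2 (13.6% and 15.3%), and 2 rose without mutant 3 (4.28%). By DESeq2, 5 rose without mutant 1 (13.8%), 5 rose and E2f2 fell without mutant 2 (17.9% and 18.8%), and 4 rose without mutant 3 (12.1%). With mutant 3 alone 6 rose and Ccnd1 fell. Ccnd3 and E2f1 were among the genes that rose in each of these 7 fits. Sample weights in limma-voom gave 4 (9.41%), whereas a separate variance per group gave 1, Cdk6 (3.71%, adjusted p = 0.0358), with Ccnd3 at 0.0807 and E2f1 at 0.0549. The same 2 genes rose with relative log expression factors (5.3%), upper-quartile factors (3.78%), limma-voom (5.16%), no filter (2.46%), a filter of 1 CPM in 3 libraries (7.14%), and without haemoglobin genes (5.07%), immunoglobulin segments (4.84%) or X and Y genes (5.22%).

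The rest of the pathway was read from 6 lists. Of 62 pathway genes tested, 32 rose and 1 fell by edgeR, beside 5.08% and 6.9% of all genes tested. Among the S-phase genes under E2F control 18 of 20 rose and 0 fell (20 higher at an unadjusted p under 0.05, and 0 lower by DESeq2), with a list median log2 fold change of 1.64. Pola1, the catalytic subunit of the polymerase that primes replication, was at 51.2, 42.8 and 57.7 CPM in mutants, against 13.6, 14.1 and 11.9 CPM in controls (log2 1.94 ± 0.19, adjusted p = 0.00598 by edgeR). Mcm6, a subunit of the replicative helicase, had a log2 fold change of 1.77 ± 0.21. Rrm2 and Cdc6 did not pass (adjusted p = 0.159 and 0.0546 by edgeR). The list medians were 1.57, 1.74 and 1.46 in mutants 1, 2 and 3, while single genes could vary more, such as Rrm2 at 156, 583 and 137 CPM in mutants and 57.3 to 122 CPM in controls. Without control 1, 2 or 3 the pathway genes that rose numbered 0, 0 and 1 by edgeR, and 30, 30 and 26 by DESeq2.

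Among the partners of E2F, 5 of 11 rose and 0 fell. Tfdp1, the DP subunit with which E2F factors bind DNA, was at 176, 146 and 210 CPM in mutants, against 49.9, 47.3 and 43.6 CPM in controls (log2 1.92 ± 0.18, adjusted p = 0.00492 by edgeR). E2f8, a repressor E2F, was at 86.1, 165 and 150 CPM in mutants, against 31.6, 28.4 and 18.0 CPM in controls (log2 2.38 ± 0.37, adjusted p = 0.0167 by edgeR). The other 3 were the repressor E2f7, the activator E2f3 and the pocket protein gene Rbl1. Rb1, the retinoblastoma gene itself, was at 42.2, 121 and 81.2 CPM in mutants and 59.97 to 62.4 CPM in controls (adjusted p = 0.489 by edgeR). Of 13 cyclins and CDK regulators of S, G2 and M phase 8 rose, among them Cdc25a and Cdc25c, phosphatases that activate CDKs. Cdc25a was at 58.4, 44.8 and 64.0 CPM in mutants, against 22.1, 23.2 and 20.7 CPM in controls, and Cdc25c at 16.6, 22.1 and 18.3 CPM in mutants, against 5.43, 5.30 and 3.65 CPM in controls (adjusted p = 0.0127 and 0.0165 by edgeR). Of 3 genes of the CDK-activating kinase 0 passed by edgeR and 0 by DESeq2, with 1, Ccnh, at an unadjusted p under 0.05. Cdk7, its catalytic subunit, was at 63.2, 30.9 and 48.9 CPM in mutants and 35.4 to 35.7 CPM in controls.

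Of 7 CDK inhibitor genes 1 rose. Cdkn1a, which encodes p21 and restrains cyclin-CDK complexes, was at 149, 60.2 and 59.5 CPM in mutants, against 6.09, 7.15 and 7.20 CPM in controls (log2 3.72 ± 0.43, adjusted p = 0.00902 by edgeR). Cdkn1b, which encodes p27, was at 92.2, 124 and 97.4 CPM in mutants and 171 to 179 CPM in controls, with every mutant below every control, but did not pass (log2 -0.71 ± 0.20, adjusted p = 0.0691). Of 8 genes that feed signals to the D cyclins 1 fell. Foxo1, a transcription factor that opposes growth signals, was at 16.2, 19.3 and 37.1 CPM in mutants, against 158, 161 and 175 CPM in controls (log2 -2.77 ± 0.33, adjusted p = 0.00944 by edgeR). Foxo1 is also abundant in lymphocytes, whose markers fell as given above.

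**Figure D4:**
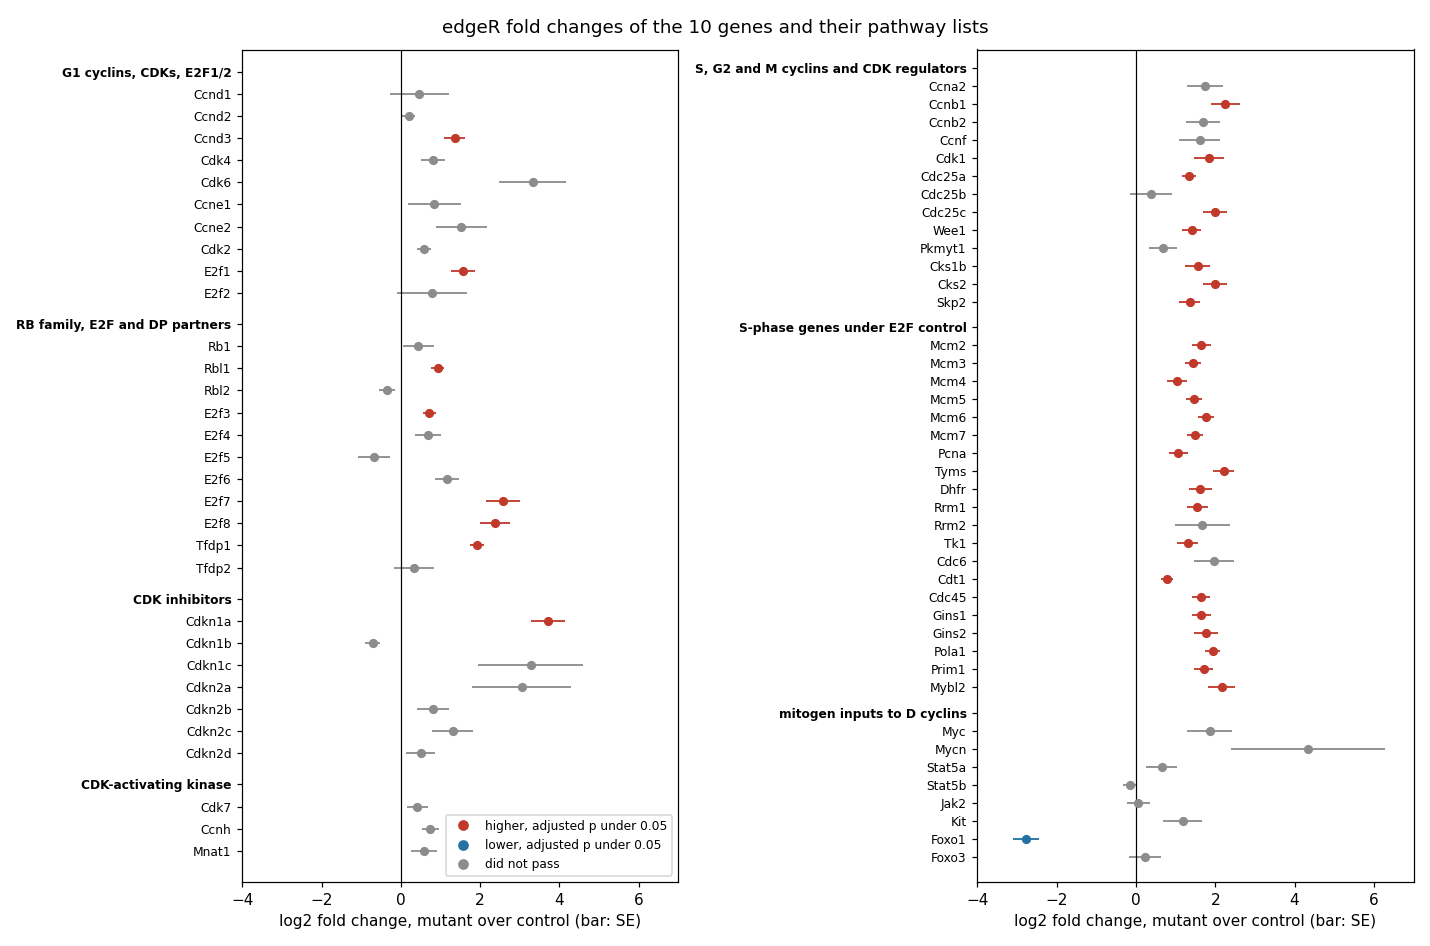
Log2 fold change, mutant over control, with SE bars, for the 10 G1 genes and the tested genes of the 6 pathway lists, coloured by the edgeR call at an adjusted p under 0.05. Of the 20 S-phase genes 18 rose and lie between 0.78 and 2.21, whereas 2 of the 10 G1 genes rose.

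The 10 genes were also set against the S-phase genes. Relative to the list's median level in the same library, Ccnd3 stood at 1.603 ± 0.35 in mutants and 1.26 ± 0.05 in controls, and E2f1 at -1.10 ± 0.33 in mutants and -1.63 ± 0.11 in controls (log2 units, SD, n = 3 each). Both differences reached an exact 2-sided permutation p of 0.1 (0.333 adjusted over 10 genes). Mutant minus control, they were 0.34 for Ccnd3 and 0.53 for E2f1. Taking the list's mean in place of its median moves this difference by -0.575 for all 10 genes alike, to -0.23 for Ccnd3 and -0.05 for E2f1. The order of the 10 differences is the same with either, but for Ccnd3, Ccne2 and E2f1 the sign depends on that choice. The genes of the list had a median log2 fold change of 1.64 by edgeR, above those of Ccnd3 (1.36) and E2f1 (1.57). Ccnd2 was lower relative to the list, at -0.17 ± 0.35 in mutants and 0.64 ± 0.50 in controls (exact permutation p = 0.1, adjusted 0.333), without overlap between groups.

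For each gene, the nearest profiles over the 6 libraries were found among 12059 other genes by Pearson's r of log2 CPM. This is a description, since the libraries share their grouping and many profiles are alike. E2f1 was closest to Erfe, the hormone by which erythroid precursors lower hepcidin (r = 0.9996), and Atp2b4 (0.9965). Erfe was at 17.0, 61.9 and 5.80 CPM in mutants 1, 2 and 3, against 0.311, 0.603 and 0.101 CPM in controls (log2 6.43, adjusted p = 0.0286 by edgeR). Ccnd3 was closest to Ces2g and to Chek2, a DNA damage checkpoint kinase (both r = 0.998), and both of these rose as well (adjusted p = 0.0233 and 0.0209 by edgeR). Cdk4 was closest to Tbrg4 and Banf1, Cdk6 to Rnf126 and Ppp1r14b, and Cdk2 to Rnaseh2a, a subunit of ribonuclease H2, and Minos1. Ccne1 was closest to Clp1 and to Blvrb, a biliverdin reductase, and Ccne2 to Urod, an enzyme of heme synthesis, and Btaf1. E2f2 was closest to Brpf3 and Foxo3, and Ccnd1 to Fzd5 and Tmem176b. Ccnd2 had no profile above r = 0.942, its nearest being Dhx8 and Commd1, whereas 90 genes exceeded 0.99 for Cdk6 and 73 for Cdk4.

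Between genes, per-kilobase levels in controls ran from Cdk4 (46.3 ± 0.95) and E2f2 (32.4 ± 6.46) through Ccnd3 (17.4 ± 2.51), Ccne1 (11.7 ± 2.68), Ccnd2 (10.6 ± 1.85), Cdk2 (9.85 to 10.2 in single libraries), E2f1 (6.55 ± 1.12), Ccnd1 (5.14 ± 0.95) and Cdk6 (3.25 ± 0.25) to Ccne2 (1.72 ± 0.48, CPM per kb, SD, n = 3). Ccne1, Ccnd2 and Cdk2 did not differ beyond their spread, nor did E2f1 and Ccnd1. In mutants Cdk4 (81.9 ± 35.1) and Ccne2 (4.85 ± 3.62) were again the highest and the lowest by mean, while Cdk6 averaged 32.9 ± 33.1 CPM per kb, a spread as large as its mean.

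Several of the 10 genes share exonic bases with a gene on the opposite strand, and the strand setting of the counting is not given in the sources used here. Ccnd3 shares 361 bases with Bysl, which had 11781 counts over the mutants and 6150 over the controls, against 21468 to 39198 counts of Ccnd3 in a single mutant and 10119 to 12649 in a single control. Cdk6 shares 368 bases with the antisense gene Gm17590, with 537 counts over the mutants and 5 over the controls. Ccne2, with 445 to 2293 counts in a single mutant, shares 609 bases with Ints8, which had 6789 counts over the mutants and 5733 over the controls. Ccnd1 shares 1100 bases, the most of the 10 genes, with LTO1, which had 5139 counts over the mutants and 6251 over the controls. Ccnd1 itself had 455 to 4147 counts in a single mutant and 1472 to 2287 in a single control. Cdk4, Ccnd2 and Cdk2 have such neighbours too, and how far reads were exchanged between strands was not tested.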

How the data were processed

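Poly-A selected libraries from a strand-marking kit were made from spleen pieces of 3 mutant and 3 control animals, per the labels' protocols. The authors deposited raw read counts for each Ensembl gene identifier, as whole numbers. STAR 2.5.3a, limma and the builds mm10 and GRCm38 appear, with no step attached, per the submitters' processing notes. Which annotation release, strand option and rule for shared reads were used is not given in the sources used here. Symbols matched 31669 of 31771 identifiers, and positions and merged exon lengths came from GENCODE M21 (GRCm38). Animals were grouped by genotype, and their numbers, given in accession order, are names only. Nothing in the labels states litters, so p-values measure the spread between these samples. Every pair of libraries within a group differed beyond sampling noise (chi-square per gene 22.0 to 86.2 between controls, 738 to 1492 between mutants).

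Genes were tested with edgeR 4.0.16 under R 4.3.3 (TMM factors, expression filter by group, robust quasi-likelihood fit, Benjamini-Hochberg adjustment at 0.05 over 19573 genes). Fold changes are log2 of mutant over control, and the SE is that value over the square root of F. CPM carry no TMM factor. Log2 CPM used TMM factors and a prior count of 2. Other settings tried were upper-quartile and relative log expression factors, DESeq2 1.42.0, 3 forms of limma-voom (limma 3.58.1), other filters, haemoglobin genes, immunoglobulin segments or X and Y genes left out, the mutant without Xist alone, and each library left out. The procedure was tested on simulated counts. Promoter windows came from RefSeq.

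The 10 genes and all lists were chosen with earlier results of these data known. Named genes were the 10, the 2 with the smallest p in each direction of each pathway list (else its most abundant gene), and the 2 nearest profiles per gene. Myc, Gata2, Flt3, Slc4a1, Tal1, Epor, Gata1, Klf1, Ly6c2, E2f7, E2f3, Rbl1, Rb1, Rrm2, Cdc6, Ccnh and Cdkn1b were named after their values were seen. The motifs were chosen then too. Ccna1 was not analysed here. Of the B-cell markers, 1 is not reported here, and the list was summed without it.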

Additional observations from a re-analysis of the deposited data

How the results depend on the processing

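No paired analysis was possible because the labels carry no replicate numbers shared between mutants and controls. The 2 calls (Ccnd3 and E2f1) held with relative log expression factors, upper-quartile factors (which moved the median log2 fold change of all genes by -0.102), DESeq2, limma-voom with and without sample weights, both other filters, and without haemoglobin genes, immunoglobulin segments or X and Y genes. The genes of the 10 that rose numbered 4 by limma-voom with sample weights, 1 with a variance for each group, and 6 with mutant 3 alone, where 1 (Ccnd1) fell. Leaving out each library in turn gave 0 to 5 higher and 0 to 1 lower by edgeR, and 3 to 5 higher and 0 to 1 lower by DESeq2. Of the pathway genes (32 higher, 1 lower), 17 rose with a variance for each group, and 2 fell with upper-quartile factors, with limma-voom and with its sample weights, and 5 with mutant 3 alone. Leaving out each library gave 0 to 39 higher and 0 to 3 lower by edgeR, and 26 to 44 higher and 1 to 3 lower by DESeq2.

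The sign of the fold change turned for Ccnd1, Ccne1 and E2f2. Ccnd1 was at -0.12 by limma-voom, -0.95 with sample weights, -0.13 with a variance for each group, -2.07 with mutant 3 alone (adjusted p = 0.000103) and, without mutant 2, -0.26 by edgeR and -0.25 by DESeq2, and edgeR without each library gave -0.26 to 0.97. Ccne1 was at -0.0363 with sample weights, -0.34 with mutant 3 alone and, without mutant 2, -0.29 by edgeR and -0.28 by DESeq2, and edgeR without each library gave -0.29 to 1.21. E2f2 was at -0.49 with sample weights, -0.81 with mutant 3 alone and, without mutant 2, -1.02 by edgeR and -1.01 by DESeq2, and edgeR without each library gave -1.02 to 1.254. The difference in the Ccnd1 share was 0.429 without mutant 3 and ran from -7.81 to 0.429 percentage points without each library. Relative to the S-phase genes, the mean in place of the median moved all 10 mutant minus control differences alike by -0.575. This gave -0.23 for Ccnd3, -0.34 for Ccne2 and -0.0466 for E2f1. Without mutant 2, with the median, the difference was 0.13 for Cdk4 and -0.26 for Ccne2. Without each library these 2 differences ran from -0.67 to 0.13 and from -0.26 to 0.74. The cause of the other turns was not tested. Adjusted p over all alternatives ranged from 1.1e-06 to 0.146 for Ccnd3 and from 1.87e-05 to 0.140 for E2f1. The number of animals limits precision, since each gene had at least 331 counts in every library.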
